A study of Mus musculus with 9 samples.

Results

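Nuclear-transfer embryonic stem cells (ntESCs) without Terc were compared with wild-type ntESCs across functional gene families. The comparison took the 3 arrays labelled Terc-/- against the 3 arrays labelled Terc+/+, which are 6 of the 9 arrays in the series. The other 3 arrays were Terc+/- and entered the linear model only to help estimate the spread between arrays. All 9 samples were mouse ntESCs of the C57BL/6 strain, described as 3 biological repeats of each genotype. The labels do not say whether the repeats of a genotype were separate lines or separate cultures of 1 line, so the p-values measure the spread between these samples, which may be technical. All cells had been kept without serum in knockout medium with serum replacement and LIF, on a layer of mitomycin-C-treated embryonic fibroblasts that was removed before RNA extraction. No age or further treatment was given for any group.

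Terc encodes the RNA that telomerase uses as its template when it adds repeats to chromosome ends. Without this RNA the enzyme cannot act, and telomeres shorten as cells divide. Embryonic stem cells normally hold high telomerase activity, divide fast and make ribosomes at a high rate, and they are pluripotent, so they can form all tissues of the body. An ntESC line comes from a cloned blastocyst, grown after the nucleus of a body cell replaced that of an oocyte. Short telomeres are known in other settings to engage the DNA damage response and p53, which is the background to the telomere, repair, p53, metabolic and pluripotency families described here.

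The measurements were deposited log2 values of a bead array with 25697 probes, between 5.11 and 14.82. Each named gene was read from its brightest probe, and probes without a gene symbol were kept on their own, which gave 18666 features. A total of 3862 measured genes were placed in 84 families, with 175 genes in more than 1. No probe was assigned to Terc (0 probes), so the deleted gene could not serve as a check of the labels, and none to Nanog (0 probes). Embryonic stem cell markers were high on all arrays: 14 of 14 had a mean above 7, with a mean level of 10.86 to 11.23 in Terc+/+ and of 10.90 to 11.12 in Terc-/-. Markers of macrophages and blood were close to the floor of the array, with 1 of 7 measured genes above a mean of 6, and 2 of 7 keratinocyte markers and 3 of 7 neural progenitor markers passed that level. So did 5 of 9 endothelial markers, 6 of 9 of extraembryonic endoderm and 5 of 9 of trophoblast, of which Tfap2c was the highest at 11.16. The mean level of these trophoblast markers was 6.67 to 7.19 in Terc+/+ and 6.51 to 6.58 in Terc-/-. That of endothelial markers was 6.21 to 6.48 and 6.49 to 6.61, and that of keratinocyte markers 5.91 to 5.94 and 5.98 to 6.04. Each of these short lists was without overlap. The longer family lists of the same cell types, with 24, 14 and 13 measured genes, all overlapped between genotypes. In the longer keratinocyte list the mean level differed by -0.10, opposite in sign to the short list. The part of these cell types in the results was not tested.

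One library stood apart. The third Terc+/+ array had the lowest mean correlation with the other arrays of its genotype, 0.9588. The first and the second Terc+/+ array had 0.9783 and 0.9692, also below the 0.9855 to 0.9912 of Terc-/- arrays. On the first principal component, which held 46.3% of the variance, the third Terc+/+ array lay at -48.8 and the other 8 arrays ran from -15.1 to 28.3. It was also the array with the lowest level of fibroblast markers. The mean level of 33 fibroblast markers, such as Col1a1, Lox, Bgn and Thy1, stood at -0.14, 0.98 and -1.31 log2 units from the mean of the series in Terc+/+ and at -0.17, 0.12 and 1.23 in Terc-/-. The 2 genotypes overlapped in it, but 28 of the 33 markers had their lowest value of the series on the third Terc+/+ array and 20 had their highest on the third Terc-/- array. In such bulk samples fewer cells of a type and less RNA per cell cannot be told apart. Values without the third Terc+/+ array are given below for some of the results it moves, not for all. For example, leaving it out changed the log2 difference of Pou5f1 from 0.09 to -0.34. That of Dnmt3b went from 0.39 to 0.85 and that of Robo4 from 1.60 to 1.14.

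Few genes passed the test one by one. With limma and Benjamini-Hochberg adjustment over all features, 10 of 18666 features were called at an adjusted p under 0.05, which is 0.0536%: 8 rose in Terc-/- (0.0429%) and 2 fell (0.0107%). At an unadjusted p under 0.05 there were 989 features higher (5.30%) and 991 lower (5.31%), 10.6% in all. The 3 arrays of one genotype lay entirely above or below the 3 arrays of the other for 2785 features (14.9%), of which 1399 were higher (7.49%) and 1386 lower (7.43%) in Terc-/-. Among the 9321 features with a mean above 6, where most of the measured signal lies, 18.8% did not overlap, 9.32% higher and 9.46% lower. These shares are the background against which each family is read here, and the median log2 difference over all features was 0.00.

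The 10 called features set out the range of what the design could resolve. The falls were Pltp, which encodes a phospholipid transfer protein of plasma lipoproteins, and Agpat4, an acyltransferase of phospholipid synthesis. The rises were Ncl (nucleolin), Lin28a (an RNA-binding protein that blocks let-7 maturation), Srf (serum response factor), Ddx3x (an RNA helicase), Morc2a (a chromatin ATPase that works with the HUSH silencing complex), Gpd2 (the mitochondrial glycerol phosphate dehydrogenase), Ccdc58 and 1 probe without a gene symbol. Ccdc58 belongs to no family here and is named because it was called, with a log2 difference of 0.81 ± 0.09 (SE). All 10 calls had an adjusted p between 0.0458 and 0.0474, just under the threshold. Leaving out the third Terc+/+ array raised the count of calls to 287, leaving out the first Terc+/- array gave 4, and leaving out any of the other 7 arrays gave 0, so membership of this short list depends on single arrays. The log2 differences themselves moved little: that of Pltp ran from -1.29 to -1.14, and that of Ncl from 0.93 to 1.09. These ranges come from the 6 fits that each left out a Terc+/+ or a Terc-/- array. Leaving out a Terc+/- array changes the SE and the p-value, but cannot change a log2 difference or a family median, here or below.

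Most families showed no common shift. Of the 84 families, 63 had a median log2 difference between -0.1 and 0.1, while 10 lay above 0.1 and 11 below -0.1. The mean level of a family did not overlap between genotypes for 10 families (11.9%), a share close to that of single features, so a separation of family means is not by itself a result. Those 10 were telomerase ribonucleoprotein, RNA polymerase subunits, nucleolar ribosome assembly, the chaperonin TRiC with prefoldin and the proteasome on the higher side, and the integrated stress response, amino acid synthesis and transport, fatty acid oxidation, nucleotide synthesis and phospholipid synthesis on the lower side. The telomerase ribonucleoprotein had a higher mean level, yet 1 of its members was higher and 3 were lower on all arrays. Families differ in how their members spread, so medians, quartiles and shares of non-overlapping members are shown together.

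**Figure D1:**
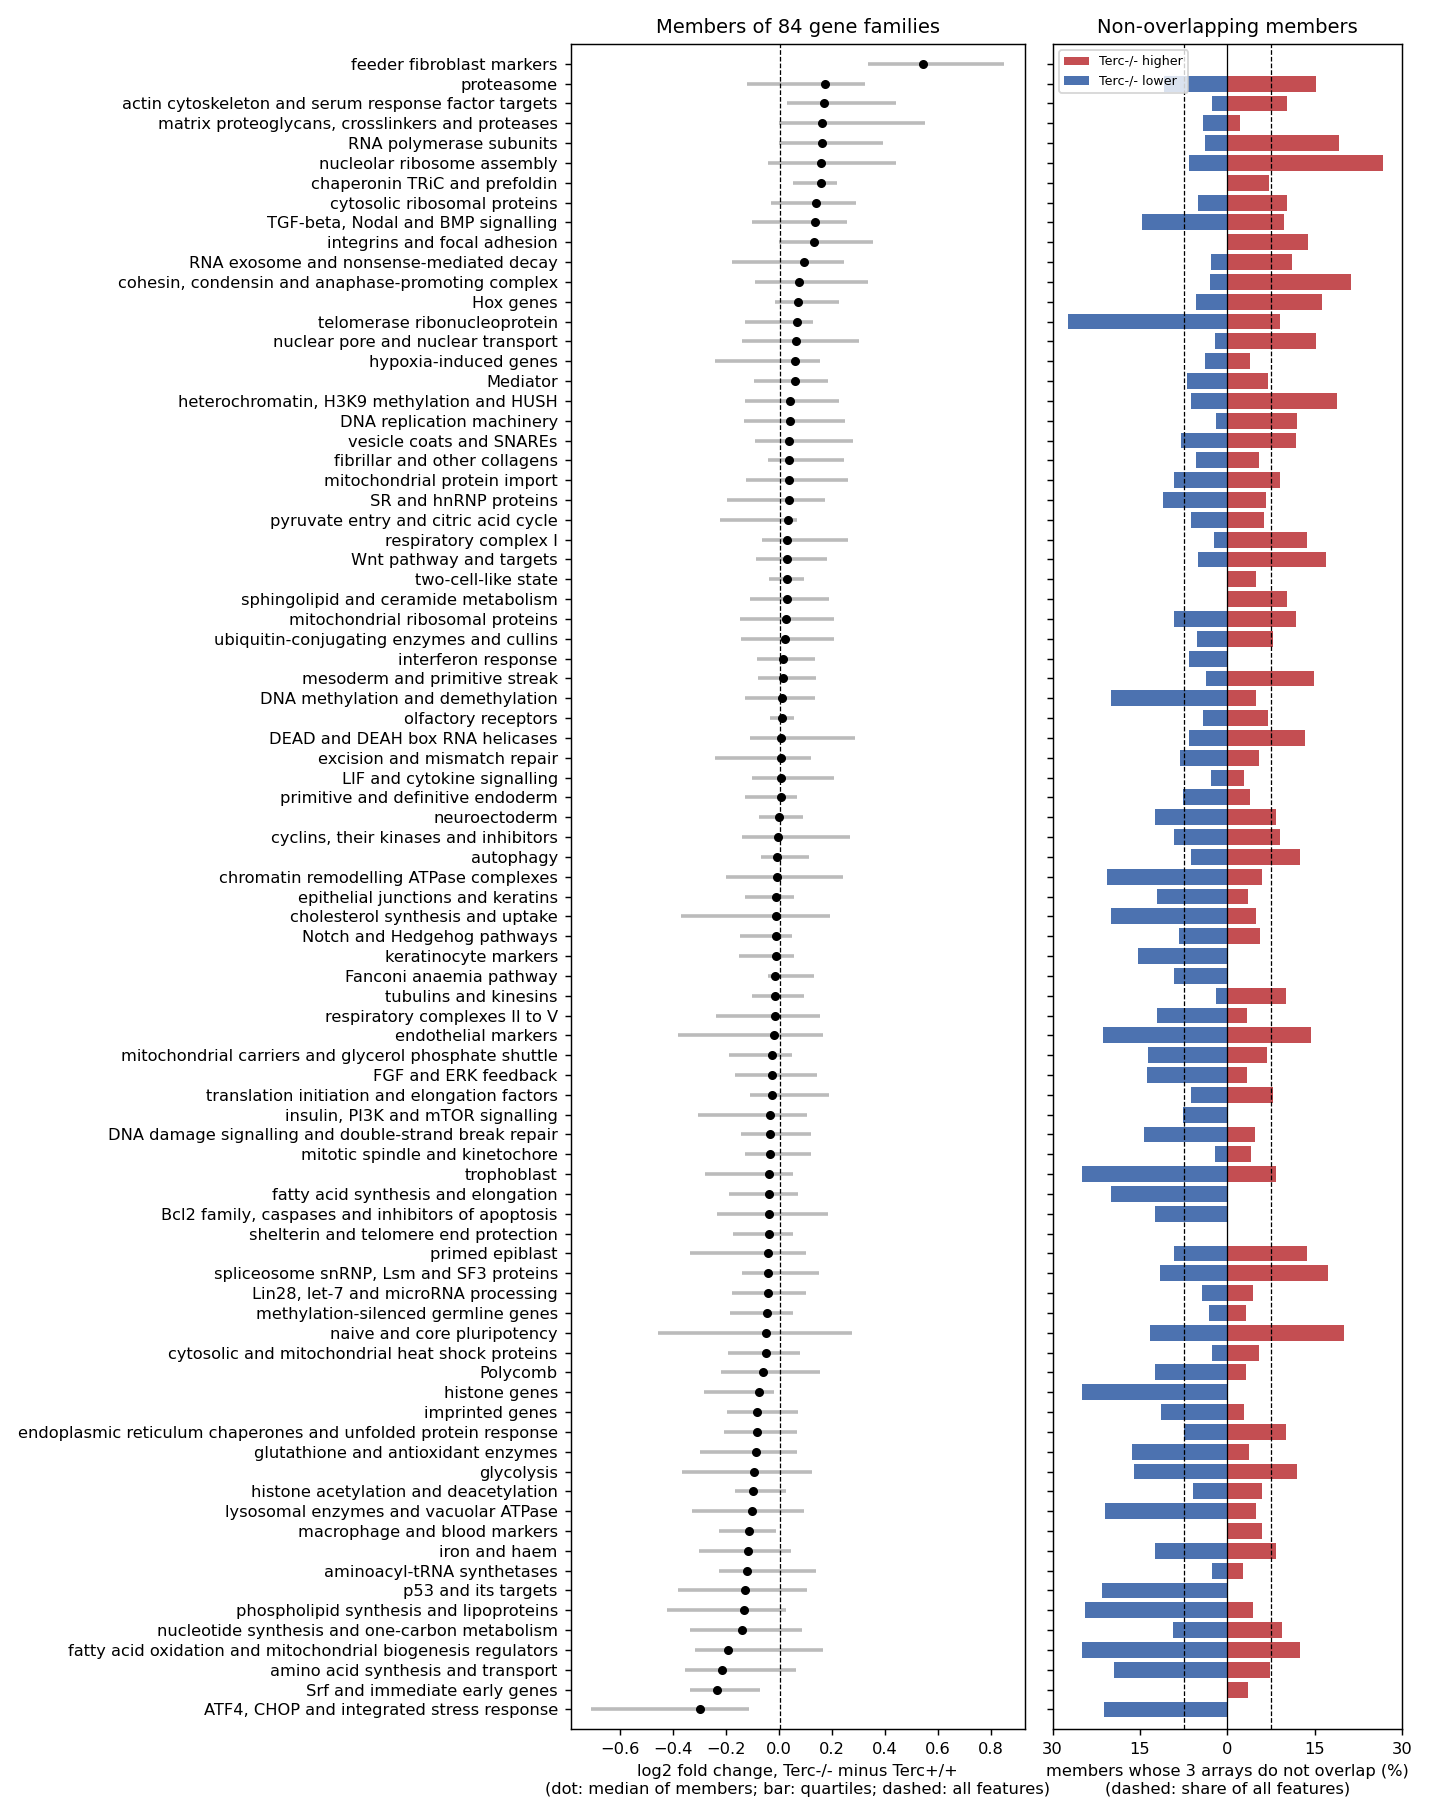
For each of the 84 families, the left panel gives the median (dot) and quartiles (bar) of the members' log2 difference, Terc-/- minus Terc+/+, with the median of all features dashed, and the right panel the percent of members whose 3 arrays do not overlap, higher (red) or lower (blue) in Terc-/-, with the shares of all features, 7.49% and 7.43%, dashed. Feeder fibroblast markers stand at the top with a median of 0.54 and no member that separates the genotypes, and the integrated stress response stands at the bottom with a median of -0.30.

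The integrated stress response had the lowest median of the 84 families. In this pathway, stress kinases phosphorylate the initiation factor eIF2, general translation drops, and the transcription factor ATF4 is made and switches on genes for amino acid supply, redox balance and, through CHOP, cell death. Of 33 measured members, 27 had a lower and 6 a higher mean in Terc-/-, with a median of -0.30. Among the 30 members with a mean above 6, 7 (23.3%) lay below Terc+/+ on all arrays and none above it, against 9.46% and 9.32% of all such features, and 10 members had an unadjusted p under 0.05, all lower. No member was called. The mean level of the 33 genes was 9.31, 9.29 and 9.08 in Terc+/+ and 8.83, 8.83 and 8.85 in Terc-/-, so all 3 Terc-/- arrays were below the lowest Terc+/+ array. The median stayed between -0.41 and -0.29 whichever array was left out, and was -0.36 with the fibroblast score as a covariate.

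Its transcription factors were among the members that separated. Atf4, the central activator, measured 12.61, 12.52 and 12.21 in Terc+/+ and 11.98, 11.50 and 11.28 in Terc-/-, a log2 difference of -0.86 ± 0.25 (SE, n = 3 arrays per genotype, limma adjusted p = 0.254). Ddit3, which encodes CHOP, measured 8.39, 8.71 and 7.99 against 7.19, 7.17 and 7.59, a difference of -1.05 ± 0.19 (limma adjusted p = 0.114). For both genes the highest Terc-/- array was below the lowest Terc+/+ array. Jdp2, a repressor of the AP-1 family, measured 8.19, 8.15 and 8.46 against 7.58, 7.38 and 7.71 (log2 difference -0.71 ± 0.12, limma adjusted p = 0.107). The regulators did not all separate, however: Atf3, a further stress-induced factor, measured 7.65, 7.54 and 6.99 against 6.25, 6.53 and 7.03, and Trib3, a pseudokinase induced by ATF4 and CHOP, 8.14, 7.79 and 7.29 against 7.43, 7.31 and 6.72, with overlapping arrays in both.

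Outputs of the pathway stood below wild type as well. Ddit4, which encodes REDD1, an inhibitor of mTOR complex 1 that hypoxia also induces, measured 10.88, 10.52 and 11.36 in Terc+/+ and 9.36, 9.51 and 9.64 in Terc-/-, a log2 difference of -1.42 ± 0.32 (limma adjusted p = 0.163). Sqstm1, the autophagy receptor p62, measured 11.85, 11.67 and 11.34 against 10.47, 10.53 and 11.06, a difference of -0.93 ± 0.22. Among hypoxia-induced genes Ddit4 was the lowest member, and 1 of the 21 bright genes was higher and 1 lower on all arrays. The probes of Vegfa, the vascular growth factor, disagreed, with a difference of 0.08 ± 0.14 for the brightest and of -0.69 and -0.01 for the others, and Kdm3a, a histone demethylase induced by hypoxia, differed by 0.61 ± 0.13.

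**Figure D2:**
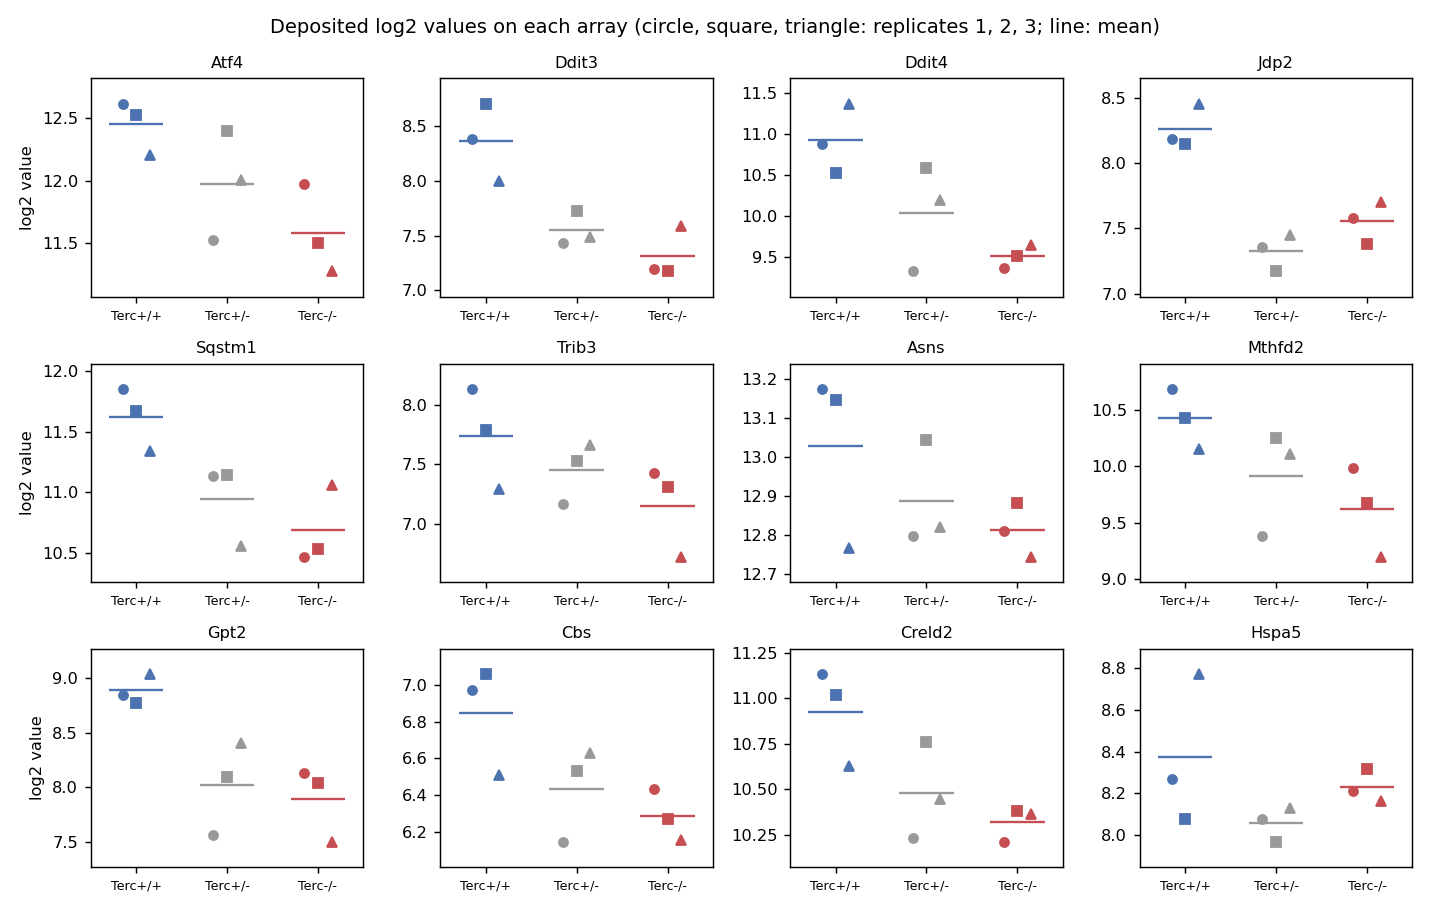
Deposited log2 values of 12 genes of stress and amino acid metabolism on each of the 9 arrays, with a symbol per replicate and a line at the mean of each genotype. Atf4, Ddit3, Ddit4, Jdp2, Sqstm1, Mthfd2, Gpt2, Cbs and Creld2 show all 3 Terc-/- arrays below all 3 Terc+/+ arrays, while Trib3, Asns and Hspa5 overlap.

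ATF4 binds with a C/EBP partner at the amino acid response element, for which the letters TGATGNAA were searched on both strands from 250 bases before to 50 after the annotated start of each gene (RefSeq, GRCm38.p6). Of the 33 members 25 had a sequence, and 11 of these (44%) held the letters, against 492 of 12992 genes (3.79%). The family holds genes chosen because they are known ATF4 targets, so this share describes the list. The members with the letters had a median log2 difference of -0.46 and the 14 without them one of -0.32. Stretches of 3 of these promoters are shown because these genes are transcription factors and an ER stress output of the pathway with lower means in Terc-/-, with the matching letters in capitals on the strand of the gene, where the reverse complement appears as TTGCATCA. They were chosen after their values were seen.
Jdp2 (chr12:85599343-85599430, plus strand): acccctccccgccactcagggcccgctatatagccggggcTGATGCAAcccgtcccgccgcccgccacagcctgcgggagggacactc
Atf3 (chr1:191183396-191183483, minus strand): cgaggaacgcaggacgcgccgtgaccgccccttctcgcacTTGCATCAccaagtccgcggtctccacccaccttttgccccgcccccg
Herpud1 (chr8:94386277-94386364, plus strand): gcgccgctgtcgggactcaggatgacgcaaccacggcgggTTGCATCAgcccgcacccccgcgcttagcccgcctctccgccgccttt
Jdp2 carried its match close to the start site and had arrays that separated the genotypes. Herpud1, a component of ER-associated degradation, measured 10.44, 10.11 and 10.10 in Terc+/+ and 10.14, 9.47 and 9.66 in Terc-/-, with an overlap and a log2 difference of -0.46. A match of letters describes the window and is no measurement of binding.

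Amino acid synthesis and transport had a median of -0.22, which was -0.12, -0.14 and -0.13 without the first, the second and the third Terc+/+ array, -0.13 with the fibroblast score as a covariate and -0.12 with every probe. Of 41 members, 27 had a lower and 14 a higher mean in Terc-/-, and among the 31 above a mean of 6, 6 (19.4%) were lower and 3 (9.68%) higher on all arrays. None was called. Gpt2, the mitochondrial alanine transaminase, measured 8.84, 8.77 and 9.04 against 8.13, 8.04 and 7.51, a log2 difference of -0.99 ± 0.23 (limma adjusted p = 0.173). Cbs, which makes cystathionine from homocysteine, measured 6.97, 7.06 and 6.51 against 6.43, 6.27 and 6.15, and its arrays also separated. Asns, asparagine synthetase, is a classic ATF4 target, and the arrays of its brightest probe overlapped with a log2 difference of -0.22 ± 0.12, while its other probes differed by -0.54 and -0.65. The transporters Slc7a3 for cationic amino acids and Slc38a5 for glutamine went the other way, with differences of 0.44 ± 0.15 and 0.53 ± 0.14 and all Terc-/- arrays above Terc+/+.

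Related pathways were mixed. Mthfd2, the mitochondrial folate enzyme that ATF4 induces, measured 10.69, 10.43 and 10.16 against 9.98, 9.68 and 9.20, while purine synthesis enzymes of the same family stood on the other side: Ppat, the first enzyme of that pathway, had a log2 difference of 0.79 ± 0.13 (limma adjusted p = 0.0941) and Paics one of 0.47 ± 0.15. The family of nucleotide synthesis and one-carbon metabolism had 3 of 32 members higher and 3 lower on all arrays, 9.38% each. Its median of -0.14 became 0.01 when every probe was counted and -0.22 without the second Terc-/- array. Of 37 aminoacyl-tRNA synthetases, many of them known ATF4 targets, 23 had a lower mean, with a median of -0.12 (-0.03 and -0.07 without the second and the third Terc+/+ array, and -0.07 without the third Terc-/- array), and 1 of 33 above a mean of 6 was lower on all arrays. Chaperones of the endoplasmic reticulum answer to other branches of the unfolded protein response. Of 34 bright ones, 4 (11.8%) were higher and 1 (2.94%) lower on all arrays, with a family median of -0.08. Hspa5 (BiP) had a difference of -0.14 ± 0.16, Xbp1 one of 0.11 ± 0.16, and the lower member Creld2 one of -0.61 ± 0.17.

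The difference of greatest size in the whole comparison was that of a heat shock gene. Hspa1a, the stress-inducible HSP70, measured 9.37, 9.99 and 8.52 in Terc+/+ and 6.65, 6.33 and 7.12 in Terc-/-, a log2 difference of -2.59 ± 0.56 (limma adjusted p = 0.15), and all Terc-/- arrays were below all Terc+/+ arrays. A near-identical copy, Hspa1b, exists, and the probe may read both. The other heat shock proteins did not follow: the family of 37 had a median of -0.05, and Hspa8, the constitutive HSP70, differed by 0.00 ± 0.08 (-0.20 for a second probe). By its brightest probe the co-chaperone Dnaja2 was higher on all arrays by 0.64 ± 0.16, while its dimmer probes differed by 0.52 and -0.25. The log2 difference of Hspa1a ran from -2.98 to -2.25 over the fits that left out 1 array.

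On the higher side, the machinery that builds ribosomes had the highest share of bright members above Terc+/+ on all arrays among the 84 families. In the nucleolus, RNA polymerase I copies the ribosomal RNA genes, and assembly factors cut, modify and fold the product into the subunits. Of 60 nucleolar assembly genes, 43 had a higher and 17 a lower mean in Terc-/-, with a median of 0.16. Of the 54 bright members, those with a mean above 6, 16 (29.6%) lay above Terc+/+ on all arrays and 3 (5.56%) below, against 9.32% and 9.46% of all such features, and 18 were higher and 4 lower at an unadjusted p under 0.05. The mean level of the family was 9.61, 9.50 and 9.53 in Terc+/+ and 9.80, 9.79 and 9.68 in Terc-/-, with no overlap. Its median stayed between 0.16 and 0.23 over the 6 fits that each left out a Terc+/+ or a Terc-/- array. It was 0.20 with the fibroblast score as a covariate.

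Ncl rose. Nucleolin is an abundant nucleolar protein that binds nascent ribosomal RNA, and its values were 10.00, 9.93 and 10.08 in Terc+/+ and 11.09, 11.10 and 10.77 in Terc-/-, a log2 difference of 0.98 ± 0.11 (limma adjusted p = 0.0458). A second probe for Ncl differed by 0.92. Pes1 and Bop1, partners in a complex that matures the large subunit, both lay higher on all arrays: Pes1 measured 8.52, 8.55 and 8.21 against 9.22, 9.63 and 9.58 (difference 1.05 ± 0.22, limma adjusted p = 0.149), and Bop1 10.53, 10.26 and 10.50 against 11.01, 10.74 and 10.82. Rpf2, which brings the 5S particle into the large subunit, measured 9.08, 8.81 and 9.43 against 9.73, 10.00 and 9.84. Other nucleolar genes did not share this. Npm1 (nucleophosmin) had a difference of 0.09 ± 0.21 with overlapping arrays, and Fbl (fibrillarin), the methyltransferase of ribosomal RNA, stood lower on all arrays at 12.63, 12.68 and 12.23 against 12.01, 11.99 and 12.03.

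Nop10, a small protein of the box H/ACA particles that modify ribosomal RNA and of telomerase itself, measured 10.16, 10.95 and 10.09 in Terc+/+ and 11.05, 11.72 and 12.04 in Terc-/-, a ratio of 2.30 between the means of the genotypes (limma adjusted p = 0.244), the highest among nucleolar genes. A second, dimmer probe for Nop10 differed by 0.20 on the log2 scale. MYC is known to act on ribosome assembly genes through the E-box letters CACGTG. These letters were found in 10 of 48 nucleolar promoters with a sequence (20.8%), against 1253 of 12992 genes (9.64%), and the 10 genes had a median log2 difference of 0.31 and the 38 others one of 0.11. Parts of 2 such promoters are given to show the letters near the start of transcription, with the E-box in capitals (RefSeq, GRCm38.p6).
Rpf2 (chr10:40246960-40247045, minus strand): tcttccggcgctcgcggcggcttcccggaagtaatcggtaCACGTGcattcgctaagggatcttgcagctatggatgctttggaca
Nol11 (chr11:107189379-107189464, minus strand): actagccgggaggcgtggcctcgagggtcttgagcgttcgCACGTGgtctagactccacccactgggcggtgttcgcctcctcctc
Rpf2 separated the genotypes, and Nol11, a factor for early ribosomal RNA processing, measured 8.61, 8.55 and 8.99 against 9.28, 9.14 and 8.95, with an overlap at the lowest Terc-/- array.

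**Figure D3:**
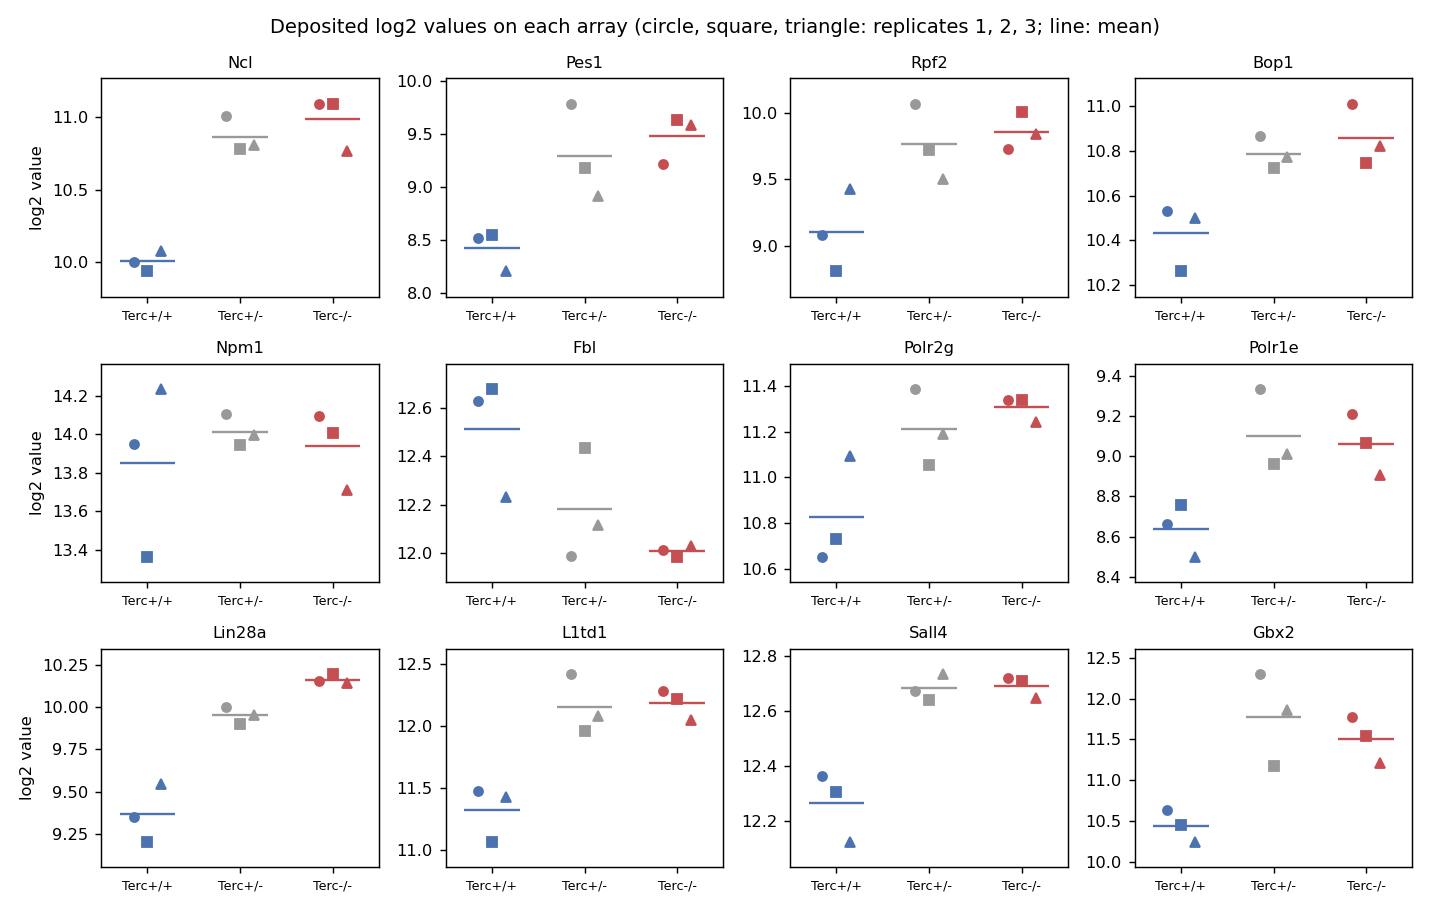
Deposited log2 values of 12 genes of ribosome assembly, transcription and pluripotency on each array, with a symbol per replicate and a line at the mean of each genotype. Ncl and Lin28a passed the test, with all 3 Terc-/- arrays above all 3 Terc+/+ arrays, Fbl lies below on all arrays, and Npm1 overlaps.

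RNA polymerase subunits and protein folding machines lay on the same side. Of 26 polymerase subunits, 19 had a higher mean, and of the 22 above a mean of 6, 5 (22.7%) were higher on all arrays and none was lower. Polr1d and Polr1e, subunits of polymerase I, and Cd3eap, its associated factor, had log2 differences of 0.36 ± 0.11, 0.42 ± 0.13 and 0.39 ± 0.13, and Polr2g of polymerase II measured 10.65, 10.73 and 11.09 against 11.34, 11.34 and 11.24. Their family median of 0.16 was 0.11 without the third Terc+/+ array and 0.36 without the third Terc-/- array. In the chaperonin TRiC with prefoldin, which folds actin and tubulin, 12 of 14 genes were higher by their means and the median was 0.16, but 1 alone separated the genotypes, Cct2, at 7.36, 7.37 and 7.25 against 7.58, 7.79 and 7.80. The proteasome, which degrades ubiquitin-marked proteins, had a median of 0.17 that dropped to 0.04 without the third Terc+/+ array. Its 43 bright members held both 7 (16.3%) higher and 5 (11.6%) lower on all arrays.

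Ribosomal proteins had a similar median to that of the assembly factors. Of 59 cytosolic ribosomal protein genes, 42 stood higher by their means, the median was 0.14, and 6 of the 55 above a mean of 6 (10.9%) were higher on all arrays, near the share of all bright features. Rpl36al measured 11.99, 12.23 and 11.33 against 12.62, 12.92 and 13.06, a log2 difference of 1.02 ± 0.24, and Rpl30 9.42, 9.83 and 9.35 against 10.09, 10.65 and 10.78. Rpl22 was on the other side, at 10.72, 10.85 and 10.53 against 10.28, 10.19 and 10.11. Ribosomal protein genes have many processed copies, so a probe may read more than its named gene. Mitochondrial ribosomal proteins were higher on all arrays for 8 of 70 bright members (11.4%) and lower for 6 (8.57%), around a median of 0.03.

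**Figure D4:**
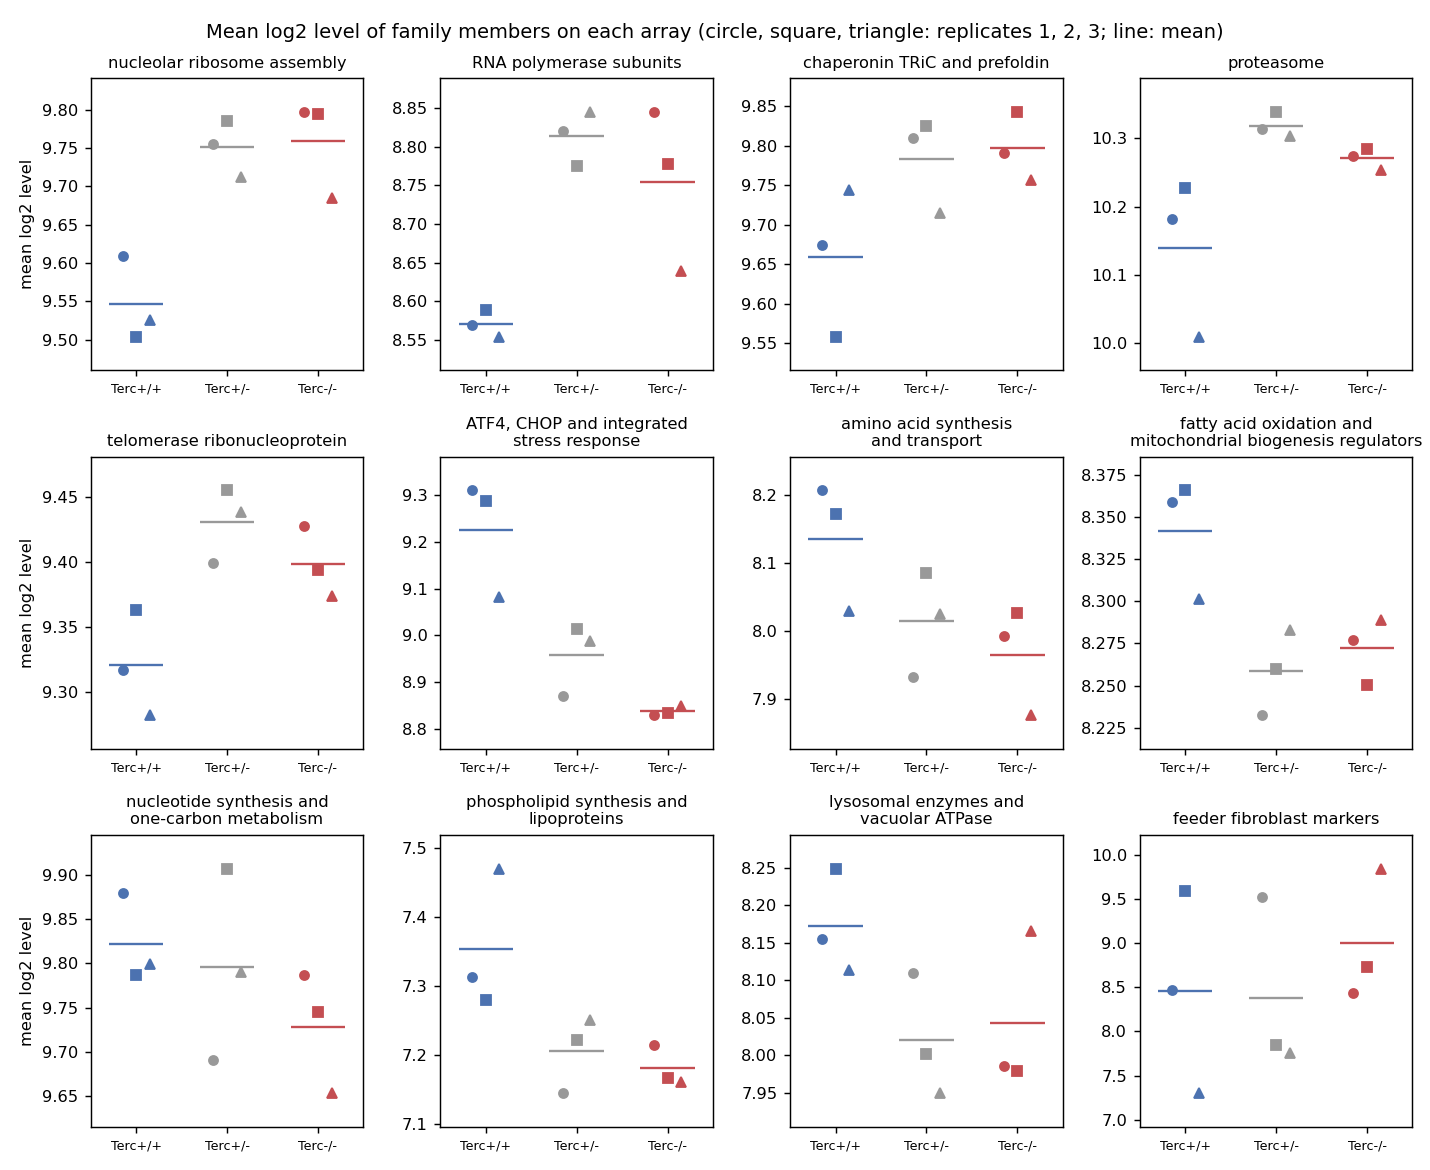
Mean log2 level of the members of 12 families on each of the 9 arrays, with a symbol per replicate and a line at the mean of each genotype. Of the families plotted, 10 show no overlap between Terc+/+ and Terc-/-, 5 on each side, and the lysosomal and feeder fibroblast families overlap; the vertical axes differ between panels.

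Families of RNA processing and nuclear traffic differed in their counts. Of SR and hnRNP proteins 3 of 38 bright genes (7.89%) were higher on all arrays and as many lower, and of Mediator subunits 2 of 26 (7.69%) each way, below the shares of all bright features. Of the bright spliceosome genes, 9 of 44 (20.5%) were higher and 6 (13.6%) lower on all arrays, and the median over all 52 was -0.04. Snrpd1, a core protein of the spliceosomal particles, measured 10.30, 10.99 and 10.17 against 11.31, 11.71 and 11.84, and Lsm6, of the ring that binds U6 RNA, 9.19, 9.35 and 9.37 against 10.19, 10.15 and 9.82. Of nuclear pore and transport genes, 7 of 39 (17.9%) stood above Terc+/+ and 1 below it, among them Kpnb1, the importin beta receptor, with a difference of 0.49 ± 0.13. Among DEAD and DEAH box helicases, Ddx3x, which takes part in translation and RNA export, rose from 10.00, 9.87 and 9.70 to 10.71, 10.84 and 10.61, a log2 difference of 0.87 ± 0.09 (limma adjusted p = 0.0458), while Ddx41 differed by -0.58 ± 0.11.

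Phospholipid and lipoprotein genes held both called falls. This family makes membrane phospholipids and moves lipids between particles and cells. Of 45 members, 31 had a lower mean, with a median of -0.13, and of the 33 above a mean of 6, 10 (30.3%) were lower and 2 (6.06%) higher on all arrays. Pltp fell from 9.06, 9.04 and 9.31 in Terc+/+ to 7.84, 7.86 and 8.04 in Terc-/-, a log2 difference of -1.22 ± 0.13 (limma adjusted p = 0.0458), and its second probe differed by -0.61. Agpat4 fell from 8.87, 8.89 and 8.66 to 8.03, 7.98 and 8.15, a difference of -0.75 ± 0.08 (limma adjusted p = 0.0458). The median of the family was -0.02 without the third Terc+/+ array, while the differences of Pltp and Agpat4 were then -1.14 and -0.83.

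Other lipid genes were lower on all arrays without being called. Apoe, an apolipoprotein, measured 12.02, 11.49 and 12.88 against 11.35, 10.61 and 10.13, a log2 difference of -1.43 ± 0.45 (limma adjusted p = 0.295), and Lpcat3, which inserts polyunsaturated chains into phospholipids, had one of -0.59 ± 0.12. Pcyt1a, the rate-limiting enzyme of phosphatidylcholine synthesis, was the main exception, at 7.33, 7.59 and 6.59 against 8.20, 8.22 and 8.41. In cholesterol synthesis 4 of 19 bright members (21.1%) were lower on all arrays, including Mvd and Pmvk of the mevalonate steps with differences of -0.60 ± 0.16 and -0.45 ± 0.13, but the median over all 20 was within 0.1 of 0 and Hmgcs1, an SREBP target at the head of the pathway, differed by -0.10 ± 0.11.

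Lysosomal enzymes and the vacuolar ATPase, which acidifies the lysosome, also held more lower than higher members. Of 62 genes, 38 had a lower mean, and of 48 above a mean of 6, 12 (25%) were lower and 2 (4.17%) higher on all arrays, with 14 lower and 1 higher at an unadjusted p under 0.05. Hexa, which cleaves gangliosides, measured 10.14, 10.14 and 10.40 against 8.57, 9.02 and 9.51, a log2 difference of -1.19 ± 0.24 (limma adjusted p = 0.13). Idua, which cleaves heparan and dermatan sulphate, measured 6.69, 6.63 and 6.76 against 6.17, 6.04 and 6.16 and came close to the threshold (limma adjusted p = 0.0577). Mcoln1, the lysosomal calcium channel, measured 7.70, 7.70 and 7.74 against 7.05, 7.08 and 6.83, and the pump subunit Atp6v0d1 11.25, 11.26 and 11.41 against 10.86, 10.72 and 10.86. The family median was small, -0.10 (-0.07 without the third Terc+/+ array), and the family means of the genotypes overlapped.

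The factors TFEB and TFE3 bind the CLEAR element of lysosomal promoters, which has CACGTG at its core. The full element was found in 1 of 51 lysosomal promoters, and CACGTG, with or without it, in 16 (31.4%), against 9.64% of all genes. Members with CACGTG had a median log2 difference of -0.16 and the 35 without it one of -0.07. The same letters therefore occur in a family with mostly higher members and in one with mostly lower members. Promoter stretches of a lysosomal channel and of a proton pump subunit are shown because each holds the letters in 2 places, in capitals (RefSeq, GRCm38.p6).
Mcoln1 (chr8:3500408-3500519, plus strand): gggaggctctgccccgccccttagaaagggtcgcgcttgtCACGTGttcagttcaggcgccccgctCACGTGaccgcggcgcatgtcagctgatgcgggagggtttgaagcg
Atp6v0b (chr4:117887302-117887405, minus strand): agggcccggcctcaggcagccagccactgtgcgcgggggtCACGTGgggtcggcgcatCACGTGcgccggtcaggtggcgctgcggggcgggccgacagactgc
Both genes were lower on all Terc-/- arrays, Atp6v0b at 9.98, 10.01 and 10.21 against 9.77, 9.54 and 9.67. Autophagy genes, which the same factors also serve, had no common direction. Of 29 bright members, 3 (10.3%) were higher and 2 (6.9%) lower on all arrays, near the shares of all bright features.

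Detoxifying enzymes also had more lower than higher members. Of 55 glutathione and antioxidant genes, 34 had a lower mean, and 8 of 49 bright members (16.3%) were lower and 2 higher on all arrays. Gstm1, a glutathione transferase, measured 8.86, 8.56 and 8.83 against 7.87, 7.42 and 7.68, a log2 difference of -1.10 ± 0.13, just short of the threshold (limma adjusted p = 0.0506). A second, dim probe for Gstm1, with a mean of 5.91, differed by -0.11. Gpx2, a glutathione peroxidase, measured 9.14, 9.62 and 9.77 against 8.39, 7.98 and 8.41 (difference -1.25 ± 0.18, limma adjusted p = 0.0656), and Cat, catalase, 8.95, 9.08 and 8.67 against 8.38, 8.08 and 8.37. Nqo1, a quinone reductase, overlapped with a difference of 0.20 ± 0.16. The Gstm genes are close copies of each other, so Gstm1 and Gstm6, with a difference of -0.56 ± 0.07, may share signal. The family median of -0.09 was 0.04 with array weights.

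Energy metabolism was mixed within each pathway. In glycolysis 4 of 20 bright genes (20%) were lower and 1 (5%) higher on all arrays, against 9.46% and 9.32% of all bright features. Hk1, a hexokinase, measured 7.94, 7.92 and 8.00 against 6.90, 7.13 and 7.00 (log2 difference -0.94 ± 0.13, limma adjusted p = 0.0524), whereas Hk2, a second hexokinase, differed by -0.10 ± 0.12. Pgk1, read from a dim probe, was higher at 6.03, 5.95 and 5.77 against 6.32, 6.63 and 6.44. Gpd2 rose from 9.26, 8.99 and 9.13 to 9.83, 9.92 and 9.77, a difference of 0.71 ± 0.08 (limma adjusted p = 0.0474). This enzyme passes electrons from cytosolic glycerol phosphate to the respiratory chain.

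In mitochondria, respiratory complex I had 5 of 42 bright members (11.9%) higher and 1 (2.38%) lower on all arrays. Complexes II to V had 1 (1.96%) higher and 7 (13.7%) lower of 51, where all bright features had 9.32% and 9.46%. The medians were 0.03 and -0.02. Ndufa5 of complex I measured 9.10, 9.49 and 8.54 against 9.68, 10.22 and 10.52, and Uqcrc1 of complex III 12.73, 12.64 and 12.78 against 12.18, 11.99 and 12.12. Fatty acid oxidation genes and regulators of mitochondrial biogenesis leaned lower, with 8 of 28 bright members (28.6%) below and 3 (10.7%) above Terc+/+ on all arrays and a median of -0.19. That median was -0.08 without the second Terc+/+ array, -0.13 without the third Terc-/- array, -0.10 with the fibroblast score as a covariate and -0.09 with the mean of a gene's probes. Acaa1a, a peroxisomal thiolase, measured 11.57, 11.66 and 11.68 against 11.04, 11.08 and 11.20 (limma adjusted p = 0.0583), and Acadl, which dehydrogenates long-chain acyl groups, differed by -0.63 ± 0.15. Hadhb of the mitochondrial trifunctional protein went the other way at 9.96, 9.94 and 10.21 against 10.90, 10.71 and 10.69, as did Nrf1, a regulator of respiratory genes, by 0.49 ± 0.10. Ppargc1a, a coactivator known to be repressed by p53 when telomeres of mouse tissues are dysfunctional, was at the floor in both genotypes (5.51 to 5.59 and 5.59 to 5.64).

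Among p53 and its targets, 8 of 37 members (7 of the 34 above a mean of 6, 20.6%) were lower on all arrays and none higher, and the median was -0.13. That median was -0.23 without the second Terc+/+ array, -0.05 and -0.20 without the first and the third Terc-/- array, and -0.02 without genes that stand in more than 1 family. The best-known targets were not among them. Cdkn1a, which encodes the cell cycle inhibitor p21, measured 11.32, 11.85 and 10.53 in Terc+/+ and 10.84, 10.69 and 11.69 in Terc-/-, a log2 difference of -0.16 ± 0.43, and Mdm2, the ubiquitin ligase of p53, differed by 0.07 ± 0.17, with other probes at -0.22 and -0.07. Both overlapped. Gadd45a, a growth arrest gene that ATF4 also induces, measured 12.34, 11.81 and 12.80 against 11.61, 11.55 and 10.97, and Apaf1, which forms the apoptosome, 9.72, 9.53 and 10.00 against 9.42, 9.31 and 9.18. Of the 22 bright Bcl2 family, caspase and inhibitor genes, 2 (9.09%) were lower and none higher on all arrays.

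Telomere proteins mostly overlapped between genotypes. In the telomerase ribonucleoprotein, the reverse transcriptase Tert (5.28 to 5.46 in Terc+/+ and 5.28 to 5.43 in Terc-/-) and the RNA-binding Dkc1 were read from probes at the floor, so these arrays do not measure them. Of the 9 bright members, 1 was higher (Nop10) and 2 were lower on all arrays: Shq1, an assembly chaperone of the particle, at 7.95, 7.65 and 8.06 against 7.49, 7.54 and 7.48, and Ruvbl2, an ATPase of the same assembly, at 11.74, 11.65 and 11.51 against 11.39, 11.25 and 11.18. The family mean was 0.08 higher in Terc-/- with no overlap, and its median changed sign with the array left out (-0.06 to 0.07). Of 12 shelterin and end protection genes none separated the genotypes, and Terf1 and Terf2, which coat the telomere duplex, differed by -0.09 ± 0.21 and 0.01 ± 0.13, with a dimmer Terf2 probe at -0.32.

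Genome maintenance was likewise split. Of 37 bright genes of DNA damage signalling and double-strand break repair, 2 (5.41%) were higher and 5 (13.5%) lower on all arrays. Atm, the kinase that signals breaks, measured 7.33, 7.27 and 6.95 against 7.54, 7.60 and 7.50, and Rnf168, which ubiquitinates histones at breaks, differed by 0.58 ± 0.16. Rad9a, of the checkpoint clamp, measured 8.58, 8.22 and 8.28 against 7.83, 7.58 and 7.63, and the base excision scaffold Xrcc1 9.51, 9.36 and 9.44 against 8.72, 9.06 and 8.79. Replication genes had 6 of 46 (13.0%) higher and 1 lower, among them Rpa1, which coats single-stranded DNA, at 12.39, 12.43 and 12.26 against 12.80, 12.78 and 12.65, and Rfc4 of the clamp loader, with a difference of 0.77 ± 0.17. In the cell cycle, 7 of 27 bright genes of cohesin, condensin and the anaphase-promoting complex (25.9%) were higher and 1 was lower, such as Pds5b, a cohesin regulator, at 8.13, 7.82 and 8.39 against 8.76, 8.88 and 8.62. Spindle and kinetochore genes had 2 (4.76%) higher and 1 (2.38%) lower of 42, and Ccnd3 (cyclin D3) differed by -0.61 ± 0.11. Zscan4c, a marker of the brief two-cell-like state in which telomeres lengthen, varied widely within each genotype, from 5.55 to 7.28 in Terc+/+ and from 6.57 to 7.89 in Terc-/-.

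Pluripotency genes were well expressed in both genotypes and individual members diverged. All 30 measured members had a mean above 6, with a median log2 difference of -0.05, and 6 (20%) were higher and 4 (13.3%) lower on all arrays. Pou5f1 (Oct4) and Sox2, the core factors, overlapped between genotypes with differences of 0.09 ± 0.37 and -0.45 ± 0.35, and a second probe for Sox2 differed by 0.39. Lin28a rose from 9.35, 9.21 and 9.55 to 10.15, 10.20 and 10.14, a log2 difference of 0.80 ± 0.09 (limma adjusted p = 0.0458), and its second probe differed by 0.71. Other members also lay above Terc+/+ on all arrays. L1td1, an RNA-binding partner of Lin28a, measured 11.47, 11.07 and 11.42 against 12.28, 12.22 and 12.04. Sall4, a zinc finger factor of the pluripotency network, measured 12.36, 12.31 and 12.13 against 12.72, 12.71 and 12.65, and of its other probes one differed by 0.75 and a dim one by -0.10. Gbx2, a homeobox factor downstream of LIF, measured 10.63, 10.45 and 10.25 against 11.77, 11.54 and 11.21. Klf4, also downstream of LIF, was lower on all arrays at 11.82, 10.96 and 10.60 against 10.01, 10.59 and 10.52. In the Lin28 pathway, Dis3l2, the exonuclease that degrades tailed let-7 precursors, measured 7.96, 8.09 and 7.88 against 7.56, 7.42 and 7.32.

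Genes of developing lineages were mostly near the floor. Of the bright Wnt pathway genes, 8 of 33 (24.2%) were higher and 2 lower on all arrays, with Notum, a secreted Wnt inhibitor and target, at 7.44, 7.77 and 6.60 against 8.66, 8.73 and 8.09 and Cdx1, a caudal homeobox gene that Wnt induces, at 6.56, 7.10 and 6.23 against 7.51, 7.54 and 8.33. Axin2, the most general Wnt target, differed by -0.04 ± 0.12. Of 37 Hox genes 12 had a mean above 6 and 3 of these (25%) were higher on all arrays, Hoxa5 measuring 5.92, 6.68 and 6.02 against 7.05, 7.40 and 7.24, Hoxa7 6.57, 7.08 and 6.09 against 7.13, 7.41 and 7.40, and Hoxb5 differing by 0.65 ± 0.24. As for fibroblast markers, the second Terc+/+ array was the highest of its genotype for these 3 genes; with the fibroblast score as a covariate the log2 differences of Hoxa5, Hoxa7 and Hoxb5 were 0.96, 0.61 and 0.49. Of 10 bright trophoblast genes 4 (40%) were lower and none higher on all arrays, against 9.46% and 9.32% of all bright features. Of these 4, Krt7, Krt8 and Krt18 are keratins of simple epithelia. Without the third Terc+/+ array the log2 differences of Krt7, Krt8 and Krt18 were -0.22, -0.80 and -0.40. For each this was the smallest in size over the fits that left out 1 array. Hes1, a Notch target, measured 10.39, 10.34 and 10.40 against 9.58, 9.38 and 9.79, and Notch3 differed by -0.44 ± 0.14.

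Epithelial genes had no member higher on all arrays among 28 above a mean of 6, and 7 (25%) lower. Cldn4, a tight junction claudin, measured 10.70, 10.36 and 11.61 against 9.16, 8.83 and 9.17, a log2 difference of -1.83 ± 0.36 (limma adjusted p = 0.127), the lowest value among junction genes. St14, the membrane protease matriptase, measured 8.04, 8.00 and 8.06 against 7.07, 6.51 and 6.65 (limma adjusted p = 0.0607), and Spint2, which inhibits it, 7.80, 7.59 and 8.01 against 7.10, 6.86 and 6.50. Krt8 measured 7.57, 7.78 and 9.44 against 6.90, 6.72 and 7.01, with the third Terc+/+ array far above the others, and its log2 difference of -1.39 was -0.80 without that array. Cdh1 (E-cadherin), the adhesion molecule of the stem cell colony, overlapped with a difference of 0.13 ± 0.24.

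**Figure D5:**
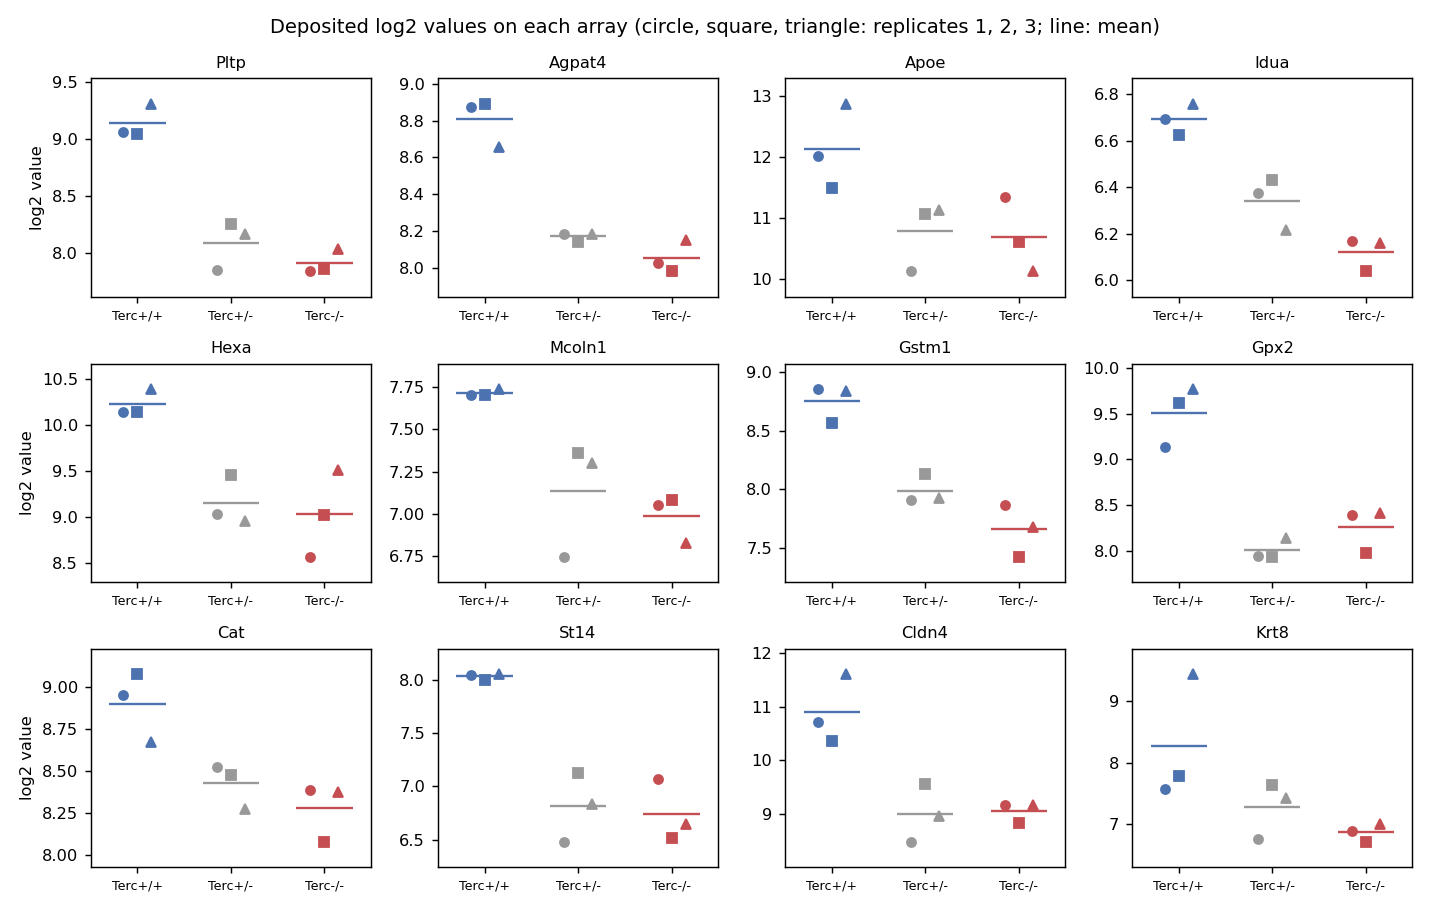
Deposited log2 values of 12 lipid, lysosomal, antioxidant and epithelial genes on each array, with a symbol per replicate and a line at the mean of each genotype. In every panel the 3 Terc-/- arrays lie below the 3 Terc+/+ arrays; Pltp and Agpat4 passed the test and the other 10 did not.

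Srf rose by its brightest probe, while its target families leaned to opposite sides. By their medians the immediate early list was lower and the actin cytoskeleton family higher, and both medians moved with single arrays. Serum response factor binds CArG boxes, drives immediate early genes after growth stimuli and, with MRTF coactivators, actin genes. It measured 9.18, 8.85 and 9.16 in Terc+/+ and 9.87, 10.20 and 10.17 in Terc-/-, a log2 difference of 1.02 ± 0.12 (limma adjusted p = 0.0474), while a second, dimmer probe for the gene differed by -0.25. Of the other genes in the immediate early list, which leaves out Arc, none was lower on all arrays among those above a mean of 6, although 22 of the family's 28 members had a lower mean, with a median of -0.23. That median was -0.08 without the third Terc+/+ array or without the first Terc-/- array, and -0.15 and -0.35 without the second and the third Terc-/- array. Fos and Egr1 overlapped with differences of -0.26 ± 0.24 and -0.16 ± 0.25. The promoter of Srf is printed because it holds CArG boxes itself, 2 of them, in capitals.
Srf (chr17:46556175-46556284, minus strand): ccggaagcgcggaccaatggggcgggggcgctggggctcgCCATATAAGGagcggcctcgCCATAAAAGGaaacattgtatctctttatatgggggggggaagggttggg
The CArG box was found in 3 of 21 promoters of that family (14.3%) and in 9 of 35 actin cytoskeleton promoters (25.7%), against 214 of 12992 genes (1.65%). Both lists include known targets of serum response factor, so these shares describe the lists. These 9 actin genes had a median log2 difference of 0.04 and the 26 others one of 0.18.

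The actin cytoskeleton family had 30 of 39 members with a higher mean and a median of 0.17, which was 0.03 with the fibroblast score as a covariate. It was 0.11, 0.35 and 0.05 without the first, the second and the third Terc+/+ array, and 0.35 and 0.02 without the first and the third Terc-/- array. Of its 35 bright members 4 (11.4%) were higher and 1 was lower on all arrays. Cfl1 (cofilin), which severs filaments, measured 8.34, 7.97 and 7.51 against 8.61, 9.15 and 9.16, Vcl (vinculin) 10.12, 10.11 and 10.62 against 10.79, 11.12 and 11.63, and the LIM protein gene Csrp1 10.06, 9.73 and 10.04 against 8.83, 9.01 and 9.12. Probes of Actb disagreed: the brightest differed by 0.46 and the others by 0.08, -0.29, -1.48 and -1.52. Integrin and focal adhesion genes had 26 of 36 members with a higher mean and a median of 0.13, which was 0.09 without the third Terc+/+ array, 0.07 without the third Terc-/- array and 0.08 with the fibroblast score as a covariate, and Itgb1, the common beta chain, measured 6.70, 7.11 and 6.20 against 7.53, 7.37 and 7.64.

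Fibroblast markers had the highest median of the 84 families and no member that separated the genotypes. The 33 feeder markers had a median of 0.54, 29 of them with a higher mean in Terc-/-, and that median was 0.02 without the third Terc+/+ array, 1.06 without the second and 0.15 without the third Terc-/- array. Col1a1, a fibrillar collagen, measured 8.71, 10.62 and 7.03 against 8.90, 8.89 and 10.33, and Lox, which crosslinks collagen, 8.90, 10.92 and 6.69 against 8.83, 9.88 and 11.55. Matrix proteoglycans, crosslinkers and proteases had a median of 0.16 that ran from -0.07 to 0.40 over the leave-one-out fits. Within a genotype, Col1a1 and Lox spanned more than 1 log2 unit.

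Growth signalling pathways differed in how many members separated the genotypes. In the insulin, PI3K and mTOR family none of 30 bright genes was higher and 2 (6.67%) were lower on all arrays. These were Deptor, an inhibitor of mTOR, at 8.38, 8.33 and 8.17 against 7.59, 7.62 and 7.49 (limma adjusted p = 0.107), and Rheb, the GTPase that activates mTOR complex 1, with a log2 difference of -0.42 ± 0.16. TGF-beta, Nodal and BMP genes had 4 of 33 bright members higher and 4 lower on all arrays, 12.1% each. The shares of all bright features were 9.32% and 9.46%. On the higher side were the receptor Bmpr1a (0.50 ± 0.16) and the signal transducer Smad5 (0.40 ± 0.11). Id4, an inhibitor of bHLH factors, was on the lower side at 7.88, 7.54 and 8.40 against 7.10, 7.05 and 7.50. Id1, a direct BMP target, overlapped. In ERK feedback the phosphatases Dusp4 and Dusp2 differed by -0.59 ± 0.14 and -0.42 ± 0.14 with no overlap. The brightest probe of Dusp6, a phosphatase specific to ERK, differed by 0.04 ± 0.22 and its other probes by -0.44 each. Socs3, a feedback inhibitor of LIF signalling, differed by -0.11 ± 0.29, and 1 of the 31 bright genes of the LIF and cytokine family stood on each side, Jak1 higher by 0.42 and Bcl3 at -0.40.

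In translation and RNA decay, 5 of 56 bright initiation and elongation factors (8.93%) were higher and 4 (7.14%) lower on all arrays. All bright features had shares of 9.32% and 9.46%. Eif1a, which scans for the start codon with the small subunit, measured 10.87, 10.64 and 10.89 against 11.25, 11.42 and 11.27, Denr, a reinitiation factor, 8.01, 8.04 and 7.34 against 8.84, 8.56 and 8.31, and Eif3c 11.75, 11.69 and 11.41 against 11.13, 11.15 and 11.02. Eif2ak3 (PERK), one of the kinases at the head of the integrated stress response, overlapped with a difference of 0.50 ± 0.31. Of 22 bright iron and haem genes, 2 (9.09%) were higher and 3 (13.6%) lower on all arrays. Tfrc, the transferrin receptor for iron uptake, measured 9.96, 9.86 and 10.00 against 10.34, 11.01 and 10.66, while Fech and Ppox, enzymes of haem synthesis, differed by -0.39 ± 0.07 and -0.30 ± 0.08, all without overlap. Among vesicle coats and SNAREs 9 of 63 bright genes (14.3%) were higher and 6 (9.52%) lower on all arrays. Vamp3, an endosomal SNARE, measured 9.37, 9.51 and 9.57 against 9.90, 9.77 and 10.00, and Sec14l1 8.27, 7.87 and 7.98 against 7.25, 7.14 and 6.97. Of 1037 olfactory receptors, which these cells are not known to use, 7 had a mean above 6 and their median difference was 0.01.

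Chromatin regulators held 1 called gene. Morc2a rose from 9.45, 9.39 and 9.34 to 10.03, 10.10 and 9.97, a log2 difference of 0.64 ± 0.07 (limma adjusted p = 0.0458). Within heterochromatin and H3K9 methylation genes, 6 of 25 bright members (24.0%) were higher and 1 was lower. The higher ones included Kdm3a, Kmt5b, a histone H4 methyltransferase, and Cbx3, a heterochromatin protein. Their differences were 0.61 ± 0.13, 0.31 ± 0.08 and 0.35 ± 0.12, and other probes of Kmt5b differed by 0.35 and -0.14. Chromatin remodelling complexes leaned the other way, 7 of 29 (24.1%) lower and 2 higher: Smarca4 (Brg1), the ATPase of the stem cell BAF complex, measured 8.66, 8.53 and 8.74 against 8.06, 8.18 and 7.90, and Mta3 of the NuRD complex 11.47, 11.23 and 11.48 against 10.86, 10.50 and 10.19, while Chd8 measured 9.08, 9.15 and 9.27 against 10.08, 9.92 and 9.66. Of 16 bright DNA methylation and demethylation genes, 4 (25%) were lower and 1 (6.25%) higher on all arrays, with a family median of 0.01. Among them Dnmt3b, the de novo methyltransferase, overlapped at 12.33, 11.73 and 13.42 against 13.28, 12.67 and 12.69. Imprinted genes included Dio3, a thyroid hormone deiodinase, at 6.76, 6.85 and 7.57 against 6.02, 5.99 and 5.92. Of its family's 22 bright members, 3 (13.6%) were lower and none higher on all arrays, against 9.46% and 9.32% of all bright features.

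A rule that ignored families named the 12 highest and 12 lowest log2 differences among features with a mean above 6, an unadjusted p under 0.01 and no overlap. Most of them are described above. Those not yet given were, on the higher side, Robo4, an endothelial guidance receptor (7.08, 7.43 and 5.89 against 8.42, 8.47 and 8.32, log2 difference 1.60 ± 0.39), Wt1, the Wilms tumour factor (6.04, 6.04 and 7.54 against 7.88, 8.29 and 7.91), Trps1, a GATA-type repressor (6.65, 6.63 and 6.69 against 7.40, 8.59 and 8.13), Rcor1, a corepressor of the LSD1 complex (7.19, 7.04 and 5.96 against 7.78, 8.06 and 8.36), and Taf13, a subunit of the basal factor TFIID (8.72, 8.84 and 8.99 against 9.84, 10.02 and 10.08, limma adjusted p = 0.0524). The 2 dimmer probes of Robo4 were at the floor and differed by -0.03 and -0.07. On the lower side were Dact2, a regulator of Wnt and Nodal signalling (9.37, 9.05 and 8.48 against 7.43, 7.60 and 7.42, log2 difference -1.48 ± 0.30), Arc, an immediate early gene of neurons (8.42, 7.59 and 7.94 against 6.69, 6.54 and 6.66), Csf2ra, a cytokine receptor chain (8.58, 8.30 and 9.16 against 7.46, 7.63 and 7.32), Ly6g6e (8.44, 8.19 and 7.98 against 7.07, 7.19 and 6.71) and Stx3, a syntaxin of apical membranes (9.12, 8.50 and 9.64 against 8.22, 7.57 and 7.96). None of these 10 was called.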

How the data were processed

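The log2 values were deposited by the authors as a value table, 1 value per probe and array; the scale was read from the values, and how the scans were processed is not stated here. A raw signal table was left out because its 18 columns carry no sample label. Symbols came from the platform annotation, and the 23141 named probes were matched to RefSeq (GRCm38.p6). limma 3.58.1 in R 4.3.3 fitted 3 genotype means to 9 arrays (6 residual degrees of freedom, prior 2.03), with the contrast Terc-/- minus Terc+/+, moderated tests, two-sided, and Benjamini-Hochberg adjustment over 18666 features. The number of arrays limits the precision, and the median SE was 0.11. The fit was tested on simulated data. An exact permutation test of 3 against 3 arrays cannot go below 0.1. Families were summarised by counts and medians with no test. Named genes are the key genes of a family, any called member, up to 4 further members with the smallest p among those with a mean above 6 and no overlap, and the 12 highest and lowest differences over all features. The families, lists and members were chosen with earlier results of these data known. Same-numbered arrays did not pair (closing section).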

Additional observations from a re-analysis of the deposited data

How the results depend on the processing

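The 10 calls depended on the fit. There were 24 with cyclic loess, 23 after median centring, 5 with the mean of a gene's probes, 127 with the fibroblast score as a covariate and 2999 with array weights, and 0 with a mean filter of 6 or 7, with the 6 arrays alone, with a trended robust prior, with a minimum fold of 1.2 and without moderation; leaving out 1 array gave 0 to 287. At an unadjusted p under 0.05 the 1980 features became 1290 and 998 with mean filters of 6 and 7 (fewer features tested), 500 with the minimum fold and 6040 with array weights, while the fits that gave 0 calls on 6 arrays, with the trended robust prior and without moderation held 1746, 1773 and 1568. Leaving out 1 array gave 1369 to 2912 features at that p and 2785 to 6030 whose groups do not overlap, which rises by construction with fewer arrays; the mean filters gave 1751 and 1337. Replicate numbers did not pair the arrays: same-numbered deviations from the genotype means correlated at 0.02, -0.25 and -0.41, and the replicate block gave 0 calls and 1719 features at an unadjusted p under 0.05. Over 305 named genes and 6046 values under alternatives, 61 had the other sign, none of them for a called gene (0). Single probes of a gene were not among these values, and the second probe of the called gene Srf differed by -0.25. Many of the 6046 values could not change sign. Fits without a Terc+/- array, on the 6 arrays alone or with the replicate block leave log2 differences and family medians as they were. The mean filters, the trended robust prior and the fit without moderation also leave a gene's log2 difference unchanged. The counts of changes therefore overstate how far sign and size were checked. Of 1762 family medians under alternatives, 80 moved by more than 1 SD between arrays. The cause of these changes was not tested. Probes near the floor, such as those of Tert and Dkc1, limit what can be said of dim genes.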
